A study of Mus musculus with 10 samples.

Results

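The 9 genes described here are 4 NF-κB subunit genes (Nfkb1, Rela, Nfkb2 and Relb), 2 genes for inhibitors of the pathway (Nfkbia and Tnfaip3), and 3 genes that NF-κB is known to induce, the survival gene Birc3 and the adhesion genes Icam1 and Vcam1. They are the rows with these symbols in a table of 24421 genes. The rule holds no measured value, though the set was put together with earlier results of these data known. All 9 were among the 13688 genes with enough counts to be tested. Messenger RNA was sequenced from a piece of the pancreas tail of female mice aged 12 weeks, giving 10 libraries from 10 mice. All mice carried Ptf1aCreER, a Cre recombinase that tamoxifen activates, expressed from the acinar gene Ptf1a, and the nuclear reporter nTnG. The groups differed in Insr, the insulin receptor gene: 3 libraries were from mice labelled Insr WT (Insrw/w, with 0 floxed alleles), 3 from Insr Het (Insrw/f, with 1) and 4 from Insr KO (Insrf/f, with 2). A floxed allele is one that Cre can cut out, so the deletion is aimed at acinar cells and not at the immune, vascular or stromal cells of the same piece. Libraries are named below by group and mouse number, as in WT-2404.

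NF-κB is a family of dimeric transcription factors held in the cytoplasm by inhibitor proteins. In the canonical branch a kinase complex marks the inhibitor IκBα, the product of Nfkbia, for destruction, and dimers of p50 (from Nfkb1) and p65 (from Rela) enter the nucleus. In the non-canonical branch the kinase NIK drives the processing of p100 (from Nfkb2) to p52, which pairs with RelB (from Relb). Targets include the inhibitors themselves, which close a feedback loop, and in endothelium and other cells the adhesion molecules ICAM-1 and VCAM-1, to which leukocytes bind. In the pancreas the pathway is known from acinar cell injury, pancreatitis and the inflammation around early lesions.

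Depth and composition differed between libraries in ways that touch every value below. Gene counts ranged from 11718559 to 19024351 per library. A list of 20 acinar markers took 14.6%, 54.7% and 66.7% of the gene counts in WT-2404, WT-1860 and WT-2067. It took 66.9% to 71.1% in Het and 58.6% to 72.7% in KO libraries. The scaling factor of WT-2404, 3.53, was the highest of a range that began at 0.596. A count of 3, the limit that a count of 0 allows, corresponded to between 0.0501 and 0.395 counts-per-million (CPM) after scaling, and all 9 genes stood above it, with at least 16 counts in every library. The targeted gene did not check the labels: Insr was at 29.8 ± 9.88 CPM in WT, 38.5 ± 8.92 CPM in Het and 31.5 ± 5.95 CPM in KO (SD, n = 3, 3 and 4), with a KO against WT log2 fold change of 0.09 (SE 0.26, edgeR adjusted p = 0.864). Counts of a whole gene do not show whether an exon was cut out in acinar cells, so the group names are those of the labels. In pieces of tissue, fewer cells of a type and less RNA per cell cannot be told apart.

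The promoters of the feedback genes are shown first, since the κB motif is the letter pattern by which the family is known to bind DNA. RefSeq promoter windows of the GRCm38.p6 assembly, 250 bases before to 50 bases after an annotated start, were found for 6 of the 9 genes. A match to the 10-base κB motif on either strand was present in windows of 3 of these 6 genes, Nfkb2, Nfkbia and Tnfaip3, while 964 of the 17224 genes with windows in the count table had one, and 4.51% of all 32851 windows held one. Some genes have several windows: Nfkb2 has 3, each with a match, and Tnfaip3 has 2, of which the second holds none. The first window of each of the 3 genes is printed. The κB matches are in capitals below, in sequence written in the direction of the gene. They lie at chr19:46304487-46304786 on the plus strand for Nfkb2, chr12:55492598-55492897 on the minus strand for Nfkbia and chr10:19015361-19015660 on the minus strand for Tnfaip3.
Nfkb2: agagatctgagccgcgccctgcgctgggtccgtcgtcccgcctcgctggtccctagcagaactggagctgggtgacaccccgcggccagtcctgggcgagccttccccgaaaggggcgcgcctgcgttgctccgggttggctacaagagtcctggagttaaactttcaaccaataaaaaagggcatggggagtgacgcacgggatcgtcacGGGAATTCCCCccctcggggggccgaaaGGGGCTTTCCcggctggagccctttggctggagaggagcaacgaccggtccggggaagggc
Nfkbia: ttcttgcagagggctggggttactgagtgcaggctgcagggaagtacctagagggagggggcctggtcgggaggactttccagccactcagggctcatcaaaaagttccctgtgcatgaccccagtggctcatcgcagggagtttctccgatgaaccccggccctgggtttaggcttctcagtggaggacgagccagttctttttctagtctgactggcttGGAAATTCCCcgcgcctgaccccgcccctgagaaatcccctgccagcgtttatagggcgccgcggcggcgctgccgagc
Tnfaip3: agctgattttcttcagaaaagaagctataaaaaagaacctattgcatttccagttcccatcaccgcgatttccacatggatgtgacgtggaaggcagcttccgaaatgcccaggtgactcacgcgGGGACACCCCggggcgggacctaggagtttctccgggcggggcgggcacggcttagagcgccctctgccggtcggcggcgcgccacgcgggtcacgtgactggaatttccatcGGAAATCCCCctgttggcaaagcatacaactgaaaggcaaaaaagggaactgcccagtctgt
In these first windows Nfkb2 has 2 runs of matching bases, Tnfaip3 has 2 and Nfkbia has 1. The pattern searched was GGGRNWYYCC, where R is A or G, W is A or T, Y is C or T and N is any base. It was not found in the windows of Rela, Birc3 and Icam1, which says only that these 300 bases hold no full match. The Icam1 window holds tggaaattcc, which departs from the pattern in its first letter alone. Near matches were not counted for any gene.

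No gene of the 9 passed the test in any comparison, and neither did any of the 13688 genes tested at an edgeR adjusted p under 0.05 (0% called for KO and 0% for Het against WT, and 0% for KO against Het). Unadjusted, edgeR gave a p under 0.05 to 3221 genes for KO and 2714 for Het against WT, and to 103 for KO against Het. DESeq2 called 1009 genes for KO and 400 for Het against WT, but it too placed 0 of the 9 past the threshold, as did limma-voom. In all, 8 of the 9 had a log2 fold change below 0 against WT in KO libraries and 8 in Het libraries, Nfkbia being the exception in both. Of all 13688 genes tested, 6591 were below 0 in KO and 6803 in Het. These are the background for the counts of lower genes in the lists below. The median over the 9 genes was -0.55 in KO and -0.80 in Het, where the median over all genes tested was 0.03 and 0.00. At an unadjusted p under 0.05 in edgeR, 3 of the 9 were lower in KO libraries (Nfkb2, Relb and Icam1), against a background of 13.9% of all genes. In Het libraries 4 of the 9 were lower (Nfkb1, Nfkb2, Tnfaip3 and Icam1), against 11.6%. Both comparisons use the same 3 WT libraries.

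The library WT-2404 had a large part in these counts. It had the highest value of all 10 libraries for 7 of the 9 genes, the exceptions being Rela and Nfkbia. Without it, 0 of the 9 genes had an unadjusted p under 0.05 in edgeR in either comparison, and the share of all genes lower at that level had also come down, to 5.29% in KO and 3.61% in Het. Their medians were then -0.24 in KO and -0.32 in Het. Without WT-2067, the WT library with the largest acinar share, Nfkb2 (-0.88, adjusted p = 0.0340 in edgeR) and Relb (-1.27, adjusted p = 0.0414 in edgeR) passed in KO against WT and Nfkb2 (-0.99, adjusted p = 0.0417 in edgeR) in Het against WT, among 1933 and 1158 genes of all those tested.

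**Figure D1:**
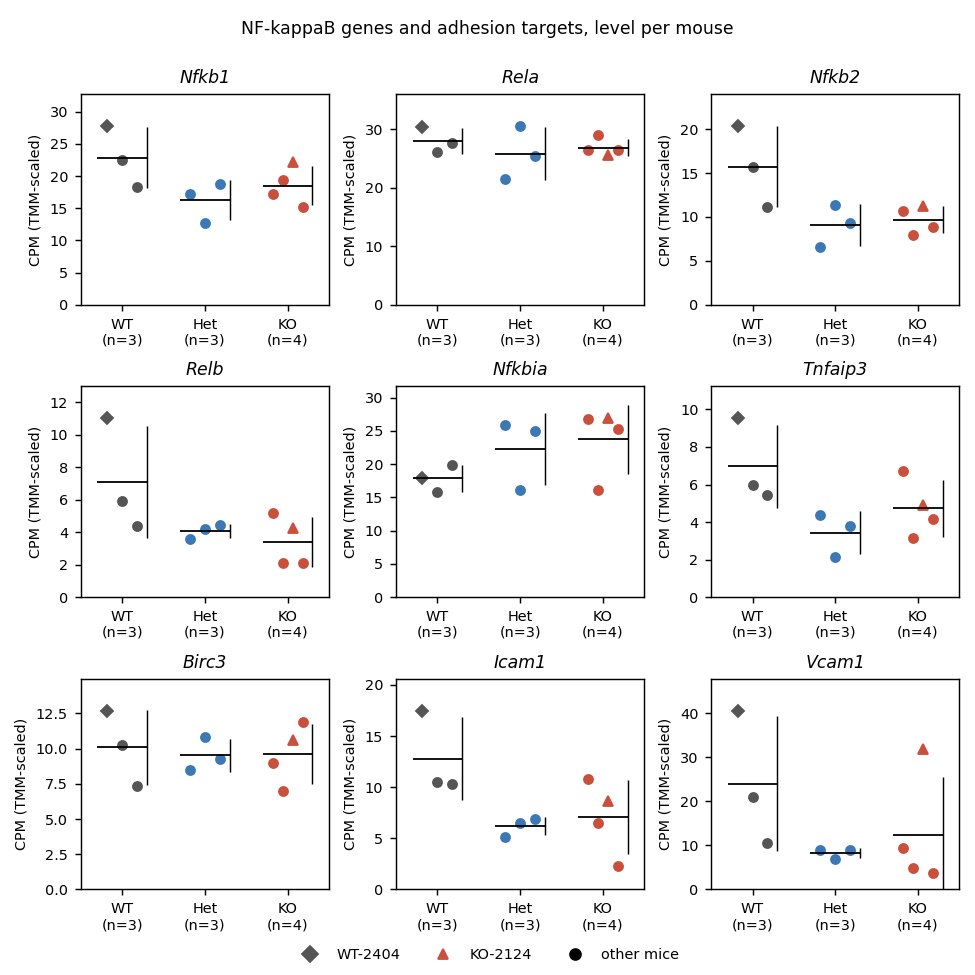
Level of each of the 9 genes in CPM of the TMM-scaled library size (y axis, linear from 0) in the 10 mice by group (x axis), with the group mean as a horizontal line and ± 1 SD as a vertical line that is not drawn below 0. WT-2404, the diamond, is the highest point for 7 genes, and KO-2124, the triangle, stands at 31.8 CPM for Vcam1 where the other KO mice are at 3.64 to 9.39.

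Gene positions below are those of the GENCODE M21 annotation (GRCm38). Of the canonical subunit genes, Rela, on chromosome 19 (5637483 to 5648130), encodes p65, the subunit that carries the activation domain. Its levels were 30.4, 26.1 and 27.6 CPM in the WT libraries, 21.5, 30.6 and 25.5 in Het and 26.5, 29.0, 25.6 and 26.5 in KO. Values are given throughout in the order WT-2404, WT-1860 and WT-2067, then Het-2066, Het-1770 and Het-2042, then KO-2079, KO-2070, KO-2124 and KO-2126. The 3 groups overlapped, and this was the gene with the narrowest spread of the 9 in KO libraries relative to its mean. The log2 fold change was -0.06 in KO (SE 0.17, edgeR adjusted p = 0.840, 95% interval -0.42 to 0.29) and -0.12 in Het (SE 0.18, edgeR adjusted p = 0.719, interval -0.50 to 0.26).

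Nfkb1, on chromosome 3 (135584655 to 135691547), encodes p105 and, after processing, p50. It was counted at 27.8, 22.5 and 18.3 CPM in WT, 17.3, 12.8 and 18.8 in Het, and 17.2, 19.4, 22.2 and 15.2 in KO libraries. The WT mice ran higher, but WT-2067 lay among the Het and KO mice. The log2 fold change was -0.30 in KO (SE 0.20, edgeR adjusted p = 0.374) and -0.49 in Het (SE 0.22, edgeR adjusted p = 0.245). Neither passed the adjusted threshold, although the Het value had an unadjusted p of 0.0455. Without WT-2404 these were -0.13 and -0.31.

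Of the non-canonical subunit genes, Nfkb2, on chromosome 19 (46304320 to 46312385), was at 20.3, 15.7 and 11.1 CPM in WT, 6.58, 11.4 and 9.27 in Het, and 10.6, 7.90, 11.2 and 8.89 in KO libraries. The 2 higher WT mice stood above every Het and KO mouse, and WT-2067 stood within them. The mean was 1.62-fold lower in KO (log2 fold change -0.70, SE 0.24, edgeR adjusted p = 0.133) and 1.74-fold lower in Het (-0.80, SE 0.26, edgeR adjusted p = 0.183). Without WT-2404 the KO value was -0.45. The exact permutation test of the KO and WT mice gave p = 0.0571 for Nfkb2 (two-sided), where 3 against 4 mice cannot go below 0.0286.

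Relb, on chromosome 7 (19606217 to 19629438), encodes the partner of p52 and had the lowest count of the 9 in a single library, 16. It was at 11.01, 5.90 and 4.41 CPM in WT, 3.60, 4.19 and 4.42 in Het, and 5.19, 2.11, 4.24 and 2.12 in KO libraries. Het mice sat close together, the highest of them level with WT-2067, while KO mice formed a higher pair and a lower pair. The log2 fold change was -1.03 in KO (SE 0.37, edgeR adjusted p = 0.139, 95% interval -1.83 to -0.23) and -0.82 in Het (SE 0.40, edgeR adjusted p = 0.269). Without WT-2404 these became -0.54 and -0.32, so this library moved both by more than 1.5 times.

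Of the inhibitor genes, Nfkbia, on chromosome 12 (55489410 to 55492647), encodes IκBα, which NF-κB itself induces. It was at 17.9, 15.7 and 19.9 CPM in WT, 25.9, 16.1 and 25.0 in Het, and 26.8, 16.1, 26.9 and 25.3 in KO libraries. Het-1770 and KO-2070 lay within the WT range, and the other 5 Het and KO mice lay above it. The mean was 1.34-fold higher in KO (log2 fold change 0.42, SE 0.23, edgeR adjusted p = 0.272) and 1.25-fold higher in Het (0.32, SE 0.24, edgeR adjusted p = 0.439). WT-2404 did not stand apart for Nfkbia, and the KO value without it was 0.42. The direction depends on the scaling: by library size alone, where the median of all genes was -1.17 in KO and -1.36 in Het, Nfkbia was at -0.71 and -0.99, above that median in both.

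Tnfaip3, on chromosome 10 (19000910 to 19015657), encodes A20, an enzyme that edits ubiquitin chains and shuts the pathway down. It was at 9.52, 5.96 and 5.45 CPM in WT, 4.38, 2.14 and 3.80 in Het, and 6.74, 3.16, 4.88 and 4.14 in KO libraries. All 3 Het mice lay below all 3 WT mice, and KO-2079 lay within the WT range. The log2 fold change was -1.02 in Het (SE 0.35, edgeR adjusted p = 0.183, 95% interval -1.78 to -0.27) and -0.55 in KO (SE 0.32, edgeR adjusted p = 0.297). Without WT-2404 the KO value was -0.24 and the Het value -0.71. Separate ranges with the Het mice lower were seen for 3 of the 9 genes, Tnfaip3, Icam1 and Vcam1, where 13.5% of all genes tested showed them. In KO against WT, 0 of the 9 showed them and 9.17% of all genes did.

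Birc3, on chromosome 9 (7848699 to 7873186), encodes cIAP2, an inhibitor of cell death that also acts in NF-κB signalling. It was at 12.7, 10.3 and 7.35 CPM in WT, 8.51, 10.8 and 9.27 in Het, and 8.96, 6.98, 10.6 and 11.9 in KO libraries. The 3 groups covered the same range. The log2 fold change was -0.07 in KO (SE 0.23, edgeR adjusted p = 0.869, 95% interval -0.58 to 0.43) and -0.09 in Het (SE 0.25, edgeR adjusted p = 0.848). Leaving out WT-2404 turned both to 0.13.

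**Figure D2:**
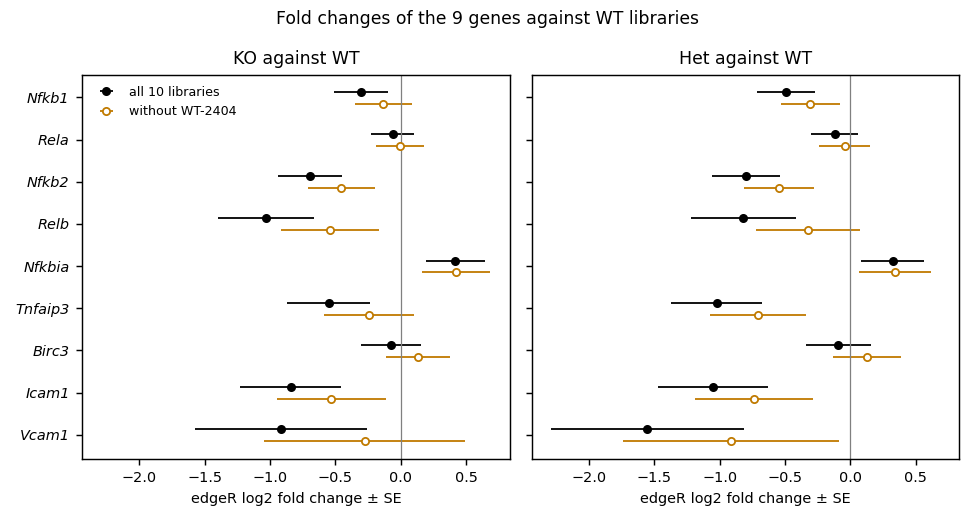
Log2 fold change from edgeR (x axis) with ± 1 SE for each of the 9 genes (y axis), in KO against WT and Het against WT, with all 10 libraries (filled) and without WT-2404 (open). Relb in KO goes from -1.03 to -0.54 and Vcam1 in KO from -0.92 to -0.28, while Nfkbia stays at 0.42.

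Of the adhesion genes, Icam1, on chromosome 9 (21015985 to 21028817), encodes ICAM-1, to which the leukocyte β2 integrins bind. It was at 17.5, 10.6 and 10.4 CPM in WT, 5.17, 6.52 and 6.87 in Het, and 10.8, 6.45, 8.62 and 2.32 in KO libraries. Every Het mouse lay below every WT mouse, and in KO only KO-2079 reached the WT range. The mean was 2.07-fold lower in Het (log2 fold change -1.05, SE 0.42, edgeR adjusted p = 0.211) and 1.80-fold lower in KO (-0.84, SE 0.38, edgeR adjusted p = 0.210). The exact permutation p was 0.1 for the Het mice, the smallest that 3 against 3 allow, and 0.2 for the KO mice (both two-sided). Without WT-2404 the KO value was -0.53.

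Vcam1, on chromosome 3 (116109949 to 116129688), encodes VCAM-1, the ligand of the integrin α4β1. It was at 40.5, 21.0 and 10.5 CPM in WT, 8.94, 6.89 and 8.84 in Het, and 9.39, 4.87, 31.8 and 3.64 in KO libraries. WT-2404 and KO-2124 stood far above the others of their groups, and the 3 Het mice lay close together below every WT mouse. The log2 fold change was -1.55 in Het (SE 0.74, edgeR adjusted p = 0.266) and -0.92 in KO (SE 0.66, edgeR adjusted p = 0.409). Without WT-2404 the Het value was -0.91.

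KO-2124 decided the Vcam1 value in KO libraries. Without this mouse the KO value was -1.99 (SE 0.50, edgeR adjusted p = 0.0890), and without WT-2404 it was -0.28. With both left out, a choice made after the values were seen, it was -1.35 (SE 0.39, edgeR adjusted p = 0.221). The sum of 19 lymphoid markers was also high in this mouse, at 43.8 CPM in KO-2124 against 5.45 to 12.6 in the other KO mice. In WT it did not follow Vcam1: it was 31.9 in WT-2404, which had the most Vcam1, 67.0 in WT-1860 and 34.2 in WT-2067. A list of 15 myeloid markers summed to 602 CPM in KO-2124 and to between 161 and 515 CPM in its group mates. The part of these cells in the Vcam1 value was not tested.

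Levels between the genes were compared as CPM per kilobase of exon, with lengths from the GENCODE M21 annotation. Nfkbia ranked first and Rela second in all 10 libraries, at 11.1 ± 1.29 and 9.13 ± 0.71 CPM per kb in WT, 13.9 ± 3.36 and 8.41 ± 1.48 in Het, and 14.8 ± 3.22 and 8.75 ± 0.47 in KO libraries (SD, n = 3, 3 and 4). In WT the next was Nfkb2 at 3.42 ± 1.01, followed by Icam1 at 2.93 ± 0.93, Vcam1 at 2.71 ± 1.72, Birc3 at 2.02 ± 0.53, Nfkb1 at 1.89 ± 0.39 and Relb at 1.83 ± 0.89 CPM per kb. Neighbours among these 6 genes differed by less than the larger of their SDs. Tnfaip3, at 0.97 ± 0.31 in WT, was the lowest of the 9 in 9 libraries, and Vcam1 was the lowest in KO-2126. The place of Vcam1 ran from the third in WT-2404 and KO-2124 to the ninth in KO-2126, the widest range of the 9.

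KO and Het libraries were compared directly, which leaves out the WT mice. All 9 genes overlapped, and every adjusted p was 1.0 in edgeR. At an unadjusted p under 0.05 there were 0 of the 9 genes, against 0.752% of all genes tested. The log2 fold changes (KO minus Het) ran from -0.22 for Relb (SE 0.38, 95% interval -1.05 to 0.62) to 0.63 for Vcam1 (SE 0.69, interval -0.90 to 2.17). Tnfaip3 stood at 0.47 (SE 0.33, interval -0.25 to 1.20), with 4.73 ± 1.51 CPM in KO (SD, n = 4) and 3.44 ± 1.16 in Het (SD, n = 3). The intervals of Rela (-0.31 to 0.42) and Nfkb1 (-0.27 to 0.64) were the narrowest. Without KO-2124 the Vcam1 value turned to -0.44.

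The receptors, kinases and adaptors that feed the canonical branch formed a list of 23 genes, all tested. In KO against WT 15 were lower and 8 higher, with a median of -0.15 and 0 past the threshold in edgeR. With single libraries left out this median ran from -0.27 (without KO-2124) to -0.046 (without WT-1860). In Het 15 were lower, with a median of -0.08 that was -0.20 without WT-2067. The 3 genes with the smallest p on the lower side in KO were receptor genes. Tlr4, a sensor of bacterial lipopolysaccharide, was at 3.15 ± 0.89 CPM in KO (SD, n = 4) and 7.62 ± 3.14 in WT (SD, n = 3), with a log2 fold change of -1.26 (SE 0.31, edgeR adjusted p = 0.116). Cd14, its co-receptor, was at -1.51 in KO (SE 0.45, edgeR adjusted p = 0.121), and Tnfrsf1b, a TNF receptor gene, at -1.07 in KO and -1.15 in Het. On the higher side were 2 kinase genes: Chuk, which encodes IKKα, was at 0.52 in KO (SE 0.21, edgeR adjusted p = 0.166) and 0.46 in Het, and Irak1 at 0.66 in KO (SE 0.27, edgeR adjusted p = 0.179) and 0.63 in Het. Traf6 (0.33 in KO) and Irak4 (-0.76 in Het) also came under the naming rule, as did Rnf31 (0.31 in Het).

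The non-canonical list held 14 ligands, receptors and regulators, of which 12 were tested. Of these, 11 were lower in KO and 10 in Het, with medians of -1.10 and -1.04, and 0 passed. Tnfrsf12a, the receptor for the cytokine TWEAK, was at 12.3 ± 4.45 CPM in WT, 4.14 ± 1.17 CPM in Het and 3.41 ± 1.90 CPM in KO (SD, n = 3, 3 and 4), and its range in WT was separate from both. Its log2 fold change was -1.80 in KO (SE 0.40, edgeR adjusted p = 0.116) and -1.57 in Het (SE 0.44, edgeR adjusted p = 0.183). Cd40, a receptor of B cells and macrophages, was at -2.43 in Het and Ltb, which encodes lymphotoxin β, at -2.28, both with an adjusted p of 0.183 in edgeR and few counts, down to 2 and 5 in a library. Tnfrsf11a, the gene for the receptor RANK, was at -1.31 in KO, and Traf3, which holds NIK in check, at -0.51 (SE 0.17, edgeR adjusted p = 0.129). Birc2, at 0.27, was the only tested gene of the list above 0 in KO. In Het only Birc2, at 0.18, and Ltbr, at 0.08, were above 0, and Ltbr was at -0.03 in KO. Without WT-2404 the list's medians were -0.72 in KO and -0.80 in Het.

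The other subunit and inhibitor genes, 14 in all and all tested, had 8 lower in KO (median -0.22) and 11 lower in Het (median -0.36). The KO median was -0.51 without KO-2124 and -0.10 without KO-2126, and the Het median -0.22 without WT-1860. Tnip1, a partner of A20, was at 15.7 ± 4.92 CPM in WT, 9.11 ± 1.16 CPM in Het and 9.04 ± 1.55 CPM in KO (SD, n = 3, 3 and 4), at -0.79 in KO (SE 0.22, edgeR adjusted p = 0.116) and -0.79 in Het. Bcl3, an IκB family protein that works in the nucleus, was at -1.50 in KO and -1.32 in Het, Nfkbie, the gene for IκBε, at -1.24 in Het, and Tnip3 at -1.54 in KO. Nfkbib, which encodes IκBβ, was at 0.42 in both, Otulin at 0.40 in both, Tax1bp1 at 0.19 in Het and Nfkbiz at 0.16 in KO. None of these passed the test in edgeR.

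Of 20 further target genes 18 were tested, with 16 lower in KO (median -0.40) and 15 lower in Het (median -0.58). Ier3, an early response gene, was at -1.08 in KO and -1.22 in Het, Mmp9, which encodes a gelatinase, at -1.31 and -1.26, and Cd83 at -0.95 in Het. Bcl2a1b was at -2.01 in KO, and it belongs to a family of near-identical copies, so its counts are uncertain. Above 0 were Gadd45b, a stress gene, at 1.44 in KO (SE 0.70, edgeR adjusted p = 0.239) and 1.36 in Het, Sod2, the mitochondrial superoxide dismutase, at 0.37 and 0.57, and Tnfrsf9 at 0.42 in Het. The adhesion list held 19 genes, 17 of them tested, of which 16 were lower in KO and 16 in Het, with medians of -0.89 and -1.11. Itgb2, the β2 integrin chain on leukocytes that binds ICAM-1, was at 30.8 ± 17.0 CPM in WT, 12.9 ± 1.88 CPM in Het and 12.0 ± 5.14 CPM in KO (SD, n = 3, 3 and 4), with a log2 fold change of -1.34 in KO (SE 0.37, edgeR adjusted p = 0.116). Its partner Itgam, a myeloid gene that also stands in the myeloid list, was at -1.85 in KO and -1.80 in Het. Mcam was at -0.89 and -0.90, and Cdh5, the cadherin of endothelial junctions, at 0.04 and 0.11. Of the target and adhesion lists, 0 genes passed in edgeR. At an unadjusted p under 0.05, 5 targets were lower in KO and 5 in Het, and 0 and 0 without WT-2404. For adhesion genes these counts were 7 and 7, and 3 and 2 without it. The medians without it were -0.28 and -0.43 for targets and -0.71 and -0.74 for adhesion genes.

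Markers of the cells in which these genes are known to be expressed were summed in each library. The 15 myeloid markers were all lower in KO and all lower in Het, and their sum was 531 to 2186 CPM in WT, 285 to 432 in Het and 161 to 602 in KO libraries. The 12 fibroblast markers summed to 1587 to 5589 CPM in WT, 648 to 1254 in Het and 573 to 1428 in KO. Of these, 11 were lower in KO and 12 in Het, by unlike amounts. The collagen and fibronectin genes Col1a1, Col1a2, Col3a1 and Fn1 had log2 fold changes of -2.57, -2.15, -2.13 and -2.16 in KO. Their WT means were 605, 549, 1016 and 563 CPM. Dcn was at 0.00, Dpt at -0.15 and Pdgfra at -0.37 in KO, with WT means of 181, 54.9 and 23.0 CPM. The 19 lymphoid markers summed to 31.9 to 67.0 CPM in WT, 14.0 to 16.3 in Het and 5.45 to 43.8 in KO, and 7 of them were at 0 in KO-2126. The 12 endothelial markers went the other way: 10 of 12 were higher in KO and 10 in Het, and they summed to 187 to 291 CPM in WT, 256 to 292 in Het and 181 to 368 in KO. None of the myeloid, fibroblast or endothelial markers was at 0 in any library. The 20 acinar markers were all higher in KO and in Het, 1 and 0 of them at an unadjusted p under 0.05 in edgeR. Their medians were 1.17 and 1.21, and 0.61 and 0.67 without WT-2404. Ductal, islet, adipocyte, mesothelial and lymphoid stroma lists were measured as well, with median log2 fold changes in KO against WT of -0.97, 0.79, 0.50, 0.40 and -0.44. Without WT-2404 these were -0.91, 0.29, 0.30, 0.92 and -0.76. In KO the myeloid, lymphoid, fibroblast and endothelial medians were -1.73, -1.19, -1.39 and 0.31, and without WT-2404 they were -0.89, -1.42, -1.17 and 0.23. At an unadjusted p under 0.05 in edgeR, 15 myeloid markers were lower in KO and 14 in Het, against 13.9% and 11.6% of all genes. Without WT-2404 these counts were 0 and 1, against 5.29% and 3.61%. Other lists kept more of theirs. Of 12 fibroblast markers 8 were lower at that level in KO and 8 in Het, and 7 and 3 without this library. Of 19 lymphoid markers 3 and 5 were, and again 3 and 5 without it. Of 12 ductal markers 7 and 6 were, and 4 and 1 without it. Of the endothelial markers 0 were lower at that level, with or without it.

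The 9 genes were then set against these sums across the 10 libraries. By Pearson r, Relb moved most closely with the myeloid sum, with r = 0.976 (permutation p = 2e-05, adjusted 0.00036) and a Spearman rho of 0.891 (permutation p = 0.00093). Without the 2 libraries farthest from the median of the myeloid sum, WT-2404 and KO-2070, r was 0.924 over 8 libraries. The next by r were Vcam1 with r = 0.899 and rho = 0.939 (permutation p = 0.00029, adjusted 0.00261, r = 0.840 without the 2), Nfkb2 with r = 0.892 and rho = 0.842 (permutation p = 0.00072, adjusted 0.00518, r = 0.763 without the 2) and Icam1 with r = 0.845 and rho = 0.879 (permutation p = 0.00451, adjusted 0.022, r = 0.934 without the 2). The highest rho with the myeloid sum was that of Vcam1. No relation was detected for Nfkbia (r = -0.180, rho = -0.030, permutation p = 0.631) or Rela (r = 0.271, rho = 0.042, permutation p = 0.440).

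By rho, Tnfaip3 passed as well (rho = 0.782, permutation p = 0.0101, adjusted 0.0410), where its r of 0.728 did not (permutation p = 0.0199, adjusted 0.0659, r = 0.427 without the 2). Nfkb1 passed by neither (r = 0.695, rho = 0.636, permutation p = 0.0286, adjusted 0.0792).

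By r, 4 genes passed with the fibroblast sum: Relb (r = 0.947), Nfkb2 (r = 0.930), Icam1 (r = 0.827) and Vcam1 (r = 0.763, and 0.518 without the 2 farthest). By rho 3 of them did, Relb (rho = 0.952), Icam1 (rho = 0.891) and Nfkb2 (rho = 0.782), since Vcam1 had rho = 0.746 (permutation p = 0.0168, adjusted 0.0606). Relb and Icam1 had a higher rho with the fibroblast than with the myeloid sum, and Nfkb2 and Vcam1 a lower one. In r, Nfkb2 alone of these genes was higher with the fibroblast sum. With the lymphoid sum Vcam1 alone passed, at r = 0.828 and rho = 0.794 (permutation p = 0.00294, adjusted 0.0176). With the endothelial sum 0 of the 9 passed, and r ran from -0.370 to 0.119. These are 36 relations, tested with 100000 permutations each and adjusted together. They were chosen after the values were seen, both axes share the library scaling, the groups differ in both measures, and no group has the 6 libraries a value within it would need. How many of all genes tested would pass against the same sums was not counted, so the numbers passing have no background beside them.

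**Figure D3:**
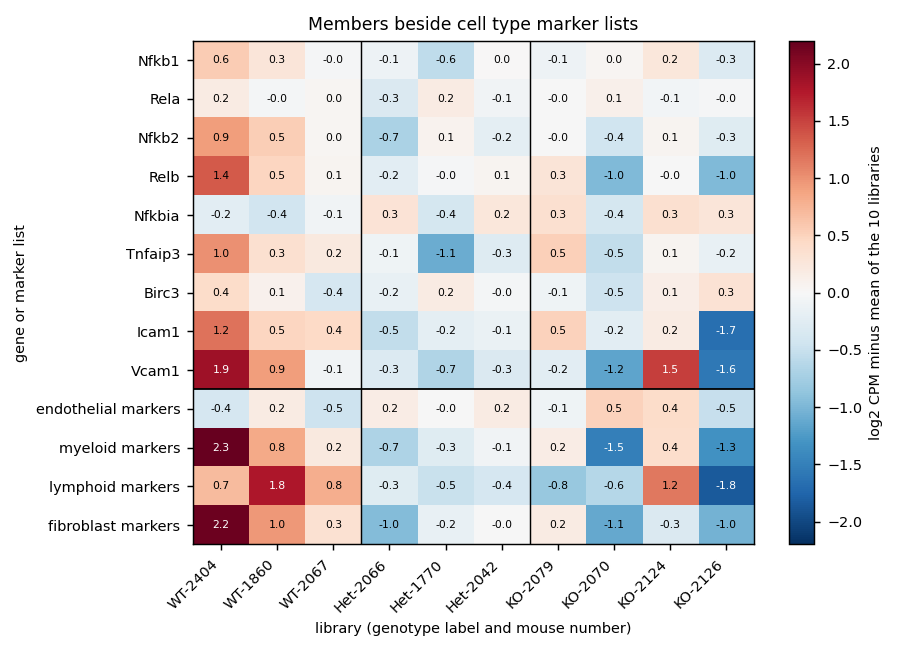
Log2 CPM of the 9 genes and of the summed marker lists (y axis) in the 10 libraries (x axis, grouped by genotype), as the difference from the mean of the 10 libraries (colour scale and printed values). Relb, Icam1 and Vcam1 share the high WT-2404 and low KO-2126 of the myeloid row. Nfkbia shows neither, and the endothelial row is low in both and in WT-2067. The myeloid row is lowest in KO-2070, at -1.51, where Relb is at -0.98, Vcam1 at -1.16 and Icam1 at -0.23.

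Ratios of counts within a library do not depend on the scaling, and 12 of them were tested in both comparisons. None of the 24 tests passed after adjustment, the smallest adjusted p being 0.457 by exact permutation. Against the endothelial list, Icam1 was counted at 8.79, 3.63 and 5.54 per 100 list counts in WT, 1.80, 2.57 and 2.37 in Het, and 4.48, 1.77, 2.54 and 1.31 in KO libraries. All Het mice lay below all WT mice, and 3 of the 4 KO mice did. The log2 difference was -1.31 in KO (exact permutation p = 0.0857) and -1.34 in Het (exact permutation p = 0.1). Vcam1 stood at 20.4, 7.21 and 5.61 per 100 endothelial counts in WT, 3.10, 2.71 and 3.04 in Het, and 3.89, 1.34, 9.38 and 2.03 in KO, a log2 difference of -1.57 in KO (exact permutation p = 0.171) and -1.67 in Het (exact permutation p = 0.1).

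Against the myeloid list the differences were above 0. Icam1 stood at 0.80, 1.29 and 1.95 per 100 myeloid counts in WT, 1.83, 1.72 and 1.60 in Het, and 2.10, 4.04, 1.43 and 1.30 in KO, a log2 difference of 0.66 in KO (exact permutation p = 0.314) and 0.44 in Het (exact permutation p = 0.4). Vcam1 differed by 0.40 in KO and 0.11 in Het on the same scale. Against the fibroblast list Icam1 differed by 0.72 in KO and 0.51 in Het, and against the lymphoid list by 0.62 and 0.46. Vcam1 differed by 0.45 in KO and 0.18 in Het per fibroblast count, and by 0.35 and 0.13 per lymphoid count. The groups overlapped in all ratios to the myeloid, fibroblast and lymphoid lists. Several Vcam1 signs turned when 1 mouse was left out. Its KO difference per fibroblast count was -0.090 without KO-2124. Its Het difference without Het-2066 was -0.13 per myeloid and -0.18 per fibroblast count, and its Het difference per lymphoid count was -0.20 without WT-1860 and -0.22 without WT-2067.

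**Figure D4:**
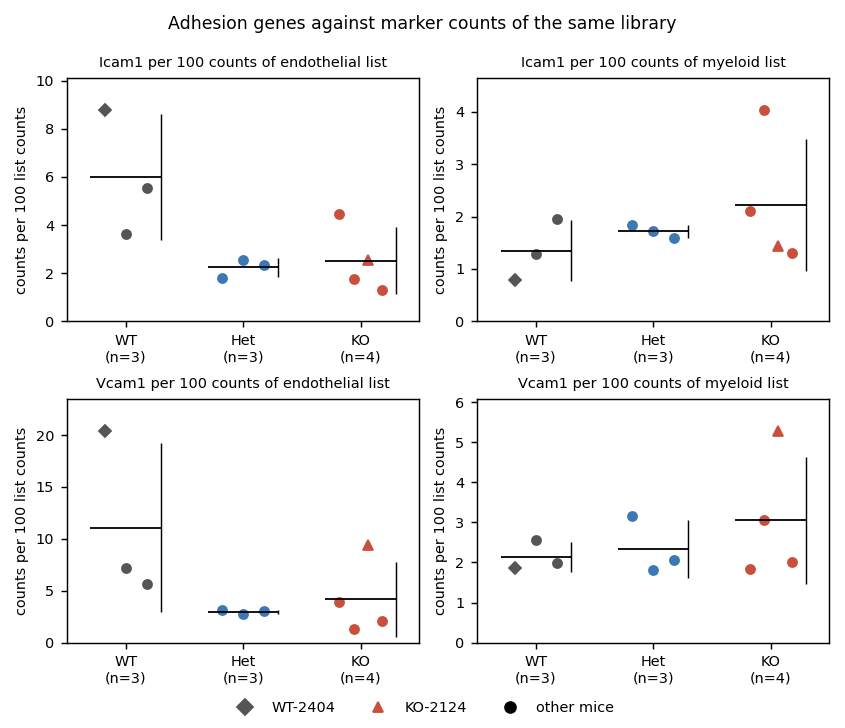
Counts of Icam1 and Vcam1 per 100 counts of the endothelial or the myeloid list (y axes, linear from 0) in the 10 mice by group (x axis), with the group mean as a horizontal line and ± 1 SD as a vertical line. Het mice lie at 1.80 to 2.57 for Icam1 per endothelial count, below the WT mice at 3.63 to 8.79, whereas the groups overlap per myeloid count.

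Among the 9 genes themselves, Nfkbia per 100 counts of Nfkb1 was 64.6, 70.1 and 109 in WT, 150, 126 and 133 in Het, and 155, 83.1, 121 and 166 in KO libraries. The Het mice lay above all WT mice and 3 of the 4 KO mice did. The log2 difference was 0.78 in Het (exact permutation p = 0.1) and 0.68 in KO (exact permutation p = 0.114). Relb to Rela differed by -0.99 in KO (exact permutation p = 0.171) and -0.56 in Het (exact permutation p = 0.3), and Nfkb2 to Nfkb1 by -0.37 and -0.29. Icam1 per 100 counts of Vcam1 was 27.1 in KO-2124, where its group mates had 64.4 to 132, and the KO against WT difference of 0.26 overlapped.

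The genes whose log2 CPM was most like that of each of the 9 were sought among all genes tested, by Pearson r over the 10 libraries, as a description. Relb was most like Ctss (r = 0.988), Ctsh (r = 0.987) and Tspo (r = 0.981), and Nfkb2 most like Cd300ld (r = 0.984), Osbpl11 (r = 0.978) and Tuba1b (r = 0.977). Vcam1 was most like Mki67 (r = 0.990), the gene of a protein found in dividing cells, then Abcg3 (r = 0.979) and Lama4 (r = 0.978). Icam1 was most like Ptpn7 (r = 0.976), Zfp651 (r = 0.969) and Cep72 (r = 0.968), and Nfkb1 most like Phactr2 (r = 0.961), Nlrp3 (r = 0.953) and H2-M3 (r = 0.950). Tnfaip3 was most like Zc3hav1 (r = 0.948), Fstl4 (r = 0.945) and Casp4 (r = 0.934). For Nfkbia these were Ttc25 (r = 0.934), Pxmp2 (r = 0.931) and Ehbp1 (r = 0.918), for Birc3 Dnah7b (r = 0.921), Heatr1 (r = 0.896) and Atxn1l (r = 0.869), and for Rela Eftud1 (r = 0.905), Gltp (r = 0.887) and Zfp821 (r = 0.883). All these values share the library scaling, and the order depends on WT-2404 for some: without it Phactr2, Nlrp3 and H2-M3 ranked 18, 32 and 27 for Nfkb1, Tspo ranked 30 and Ctsh 11 for Relb, and Atxn1l ranked 21 for Birc3. Between the 9 genes the closest pair was Relb and Icam1 (r = 0.850, and 0.783 without WT-2404).

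The κB motif was also set against the values of all genes with a promoter window. In KO against WT the 677 tested genes with a match had a median log2 fold change of -0.06, and 20.7% were lower at an unadjusted p under 0.05 in edgeR. The 9748 tested genes with windows but no match had a median of 0.04, with 13.1% lower. In Het the medians were -0.09 and 0.01, with 16.8% and 10.8% lower. No test was made of these shares, and a gene with several windows had more chances of a match. The shares were not recomputed without WT-2404. Leaving that library out took the share of all genes lower from 13.9% to 5.29% in KO and from 11.6% to 3.61% in Het. The part of cell types in these shares was not tested. The 3 genes whose sequences are printed above lay on both sides of these medians, Nfkb2 at -0.70, Tnfaip3 at -0.55 and Nfkbia at 0.42 in KO.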

How the data were processed

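The authors deposited a table of raw counts per gene symbol, whole numbers that sum to a different total in each library, with 1 column per mouse. All 10 columns were matched to samples by genotype and mouse number. Per the labels' protocols, RNA came from pulverised frozen tissue (RNeasy columns), and a stranded kit for messenger RNA gave the libraries. The submitters' processing notes name DRAGEN, STAR, Cufflinks and the build mm10, with no roles. The counting tool, the annotation and the use of strand are not given in the sources used here, so genes that overlap others (Nfkb1, Nfkb2, Icam1 and Vcam1, by GENCODE M21) are uncertain to that extent. A label counts 4 WT mice, of which 3 were analysed here. One more allele, which all groups share, is not reported here. Nothing gives a litter, batch or date, so p-values measure the spread between these mice.

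Of the table, 2 rows hold reads assigned to no gene and were kept out of all totals. They held 2.59% to 8.71% (reads outside genes) and 0.101% to 0.584% (ambiguous reads) of the counts. Of 24421 genes, 6269 had no count and 13688 passed filterByExpr (minimum count 10). Genes were tested with edgeR 4.0.16 in R 4.3.3 (TMM scaling, robust quasi-likelihood test, two-sided), with the 3 groups fitted together, with 7 residual degrees of freedom before moderation, and adjusted by Benjamini and Hochberg's method at 0.05. DESeq2 1.42.0 and limma-voom 3.58.1 were alternatives, as were other scalings, filters and leaving out each library. CPM (counts-per-million) is taken over the TMM-scaled library, with a prior count of 2 for log2 CPM. Single values were compared by exact permutation over 35 splits (3 against 4) or 20 (3 against 3), two-sided. Ratios used a pseudocount of 0.5. The scripts were tested on simulated data. With no molecular identifiers, reads may be copies of 1 molecule, so the limit of 3 counts covers counting error alone.

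The 9 genes and the lists were chosen with earlier results of these data known. From each pathway list the text names any gene past the threshold, or else up to 3 higher and 3 lower genes by smallest p, and for each of the 9 genes the 3 most alike. Trbc2 and Fdcsp were not matched in the table. Promoter windows are from RefSeq (GRCm38.p6).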

Additional observations from a re-analysis of the deposited data

Results flagged for a closer look

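In the KO group 1 mouse stood apart for Nfkbia. KO-2070 was at 16.1 CPM and the other 3 KO mice at 25.3 to 26.9, so the gap to the nearest mouse was 0.860 of the whole range, above Dixon's critical value for 4 samples at the 95% level. In all, 31 measures were checked this way, of which chance would give about 1.55. KO-2070 also had the lowest myeloid sum of the 10 libraries, 161 CPM, and the highest endothelial sum, 368 CPM. Their part in the Nfkbia value was not tested.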

How the results depend on the processing

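No paired analysis was possible because mouse numbers are not shared between groups. By library size alone, which shifts the median of all genes by -1.17 in KO against WT, -1.36 in Het against WT and 0.17 in KO against Het, 5 of the 9 genes passed in KO and 6 in Het, 2835 and 3125 genes of all passed, and 7 and 8 of the 9 were lower at an unadjusted p under 0.05, as were 45.9% and 51.0% of all genes. Nfkbia was then at -0.71 and -0.99, and Relb in KO against Het at 0.047. DESeq2 called 1009 genes in KO and 400 in Het but 0 of the 9. The cause was not tested. Leaving out each library in turn gave 0 to 2 of the 9 genes past the threshold in KO and 0 to 1 in Het, 0 to 1933 and 0 to 1158 genes of all, and 0 to 4 and 0 to 6 of the 9 lower at an unadjusted p under 0.05, where the share of all genes was 5.29% to 16.8% in KO and 3.61% to 15.4% in Het. Without both WT-2404 and KO-2124, chosen after seeing the data, 1 of the 9 was lower at that level in KO and 1 in Het (9.01% and 4.79% of all genes), Rela in KO was at 0.019, Birc3 at 0.08 in KO, 0.12 in Het and -0.05 in KO against Het, and Vcam1 in KO against Het at -0.43. With single libraries left out, Birc3 ran from -0.25 to 0.13 in KO, -0.27 to 0.13 in Het and -0.093 to 0.14 in KO against Het, and Rela from -0.11 to -0.0042 in KO, -0.25 to 0.00046 in Het and -0.058 to 0.19 in KO against Het. In KO against Het, Nfkb2 ran from -0.080 to 0.29, Nfkbia from -0.093 to 0.24, Icam1 from -0.074 to 0.49 and Vcam1 from -0.44 to 0.93. The log2 ratio of Icam1 to Vcam1 in KO ran from -0.031 to 0.73. Ratios of Vcam1 ran from -0.090 to 0.71 (fibroblast list, KO), -0.18 to 0.41 (fibroblast, Het), -0.13 to 0.27 (myeloid, Het) and -0.22 to 0.80 (lymphoid, Het). In all, 14 alternative values of single genes passed where the value given above did not, 7 in each comparison with WT. The filter on low counts, DESeq2's size factors, removal of the acinar list and a fit of only the groups compared changed no sign of the 9 genes. They changed no call at the adjusted threshold either. With these settings 2 to 3 of the 9 were lower at an unadjusted p under 0.05 in KO and 3 to 5 in Het. The share of all genes was then 11.4% to 14.6% in KO and 9.87% to 12.8% in Het. Depth limits Relb, Icam1 and Tnfaip3 most, with 16, 23 and 23 counts in their lowest library.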
